A study of Caenorhabditis elegans with 9 samples.

Results

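The wild-type first-stage (L1) larvae of a Caenorhabditis elegans array series are described here, from the 3 arrays titled as wild type out of 9 arrays in all. The other arrays carry the ogt-1 deletion ok430 or the oga-1 deletion ok1207, and no genotypes are compared. Per the labels' protocols, eggs released by bleaching adults hatched without food in sterile buffer and the larvae were collected after 48 h. They were then fed OP50, the standard laboratory Escherichia coli strain, for 3 h on agar plates before total RNA was taken with Trizol, and 4 ug of it was made into biotin-labelled cRNA. The labels call the arrays biological replicates 1, 2 and 3 and do not name the wild-type strain. Nothing else says whether they came from separate cultures, so the spread between them may be partly technical. All probe sets except the 77 control probe sets were ranked by their mean log2 signal, which leaves 22548.

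An L1 larva that hatches without food stops growing and can wait for weeks, living on stored reserves. Feeding restarts growth, and growth rests on ribosomes, which are built from ribosomal RNA and a large and a small set of ribosomal proteins. The newly hatched larva has most of its neurons and body wall muscle cells, a working pharynx and intestine, and a gonad of few cells, while oocytes, sperm, yolk and the adult cuticle belong to later stages.

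Each value is the deposited log2 signal of a probe set, a group of short probes against 1 transcript. Probes differ in how strongly they bind, so a rank is a rank of signal and not a count of transcripts. The percentile given below is the share of the 22548 probe sets with the same or a lower mean, and the brightest and the dimmest 10% hold by construction 10% of all probe sets. Of the ranked probe sets 20766 carry 1 gene symbol and stand for 17118 genes. Of all 22548, named or not, 6711 (29.8%) carry a mark in their identifier for possible cross-hybridisation with related sequences, and such probe sets are called marked. Means ran from 3.84 to 14.82 with a median of 7.45. The brightest 10% began at 10.84, the brightest 1% at 13.47, and the dimmest 10% ended at 4.81. The median signal was 7.45 on wild type 1, 7.45 on wild type 2 and 7.45 on wild type 3, so the arrays were already on a common scale.

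Ribosomal proteins held the top of the ranking. The brightest probe set was that of rps-3A, a small-subunit protein, with 14.82 on each of the 3 arrays. The large-subunit gene rpl-31 followed with 14.76, 14.82 and 14.82 on wild type 1, 2 and 3 (marked). Next came rpl-8 with 14.77, 14.78 and 14.78 and rpl-13 with 14.77, 14.76 and 14.78. These values differ by a few hundredths of a log2 unit, so the order of neighbours at the top lies within the spread between arrays. Of the 30 genes with the brightest probe sets 28 encode ribosomal proteins, 19 of the large subunit and 9 of the small. Their means ran from 14.47 to 14.82 and their standard deviations (SD, n = 3 here and below) from 0.0025 to 0.067. Of these 30 probe sets 20 are marked.

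The other two genes among the 30 were eef-1A.1 and mlc-2. The gene eef-1A.1 encodes elongation factor 1A, which brings tRNAs to the ribosome, and gave 14.50, 14.49 and 14.51. The gene mlc-2 encodes a myosin light chain of muscle and gave 14.48, 14.51 and 14.42. Both probe sets are marked, and each gene has a second marked one, at a mean of 14.23 for eef-1A.1 and 12.20 for mlc-2. The signal of mlc-2 thus depended on the probe set far more than on the array.

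Over all symbols the brightest 1% held 226 probe sets, of which 109 (48.2%) carry a ribosomal protein symbol (rpl, rps, rplp or rpsa). Only 118 probe sets of the whole ranking carry such a symbol. Marked probe sets made up 69.5% of the brightest 1%, against 25.2% of the dimmest 1%. All but 4 of the 118 lay in the brightest 10%. The 4 exceptions, named after their values were seen, were second probe sets of rpl-8 (4.88, 4.94 and 4.98), rpl-12 (7.003, 6.990 and 6.893) and rps-18 (10.008, 10.005 and 10.008, marked), and the only probe set of rpl-42 (6.08, 6.05 and 6.19). The other probe sets of rpl-8, rpl-12 and rps-18 lay in the brightest 1%, so for these genes a lower probe set did not stand for a dim gene. For rpl-42 this cannot be told, as it has no other probe set.

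Gene families were formed from the letters of the symbol before the hyphen, with at least 8 measured genes, which gave 233 families. The small-subunit family rps had a median percentile of 99.68, with 44 of 45 probe sets in the brightest 10%. The large-subunit family rpl had 99.67, with 63 of 66. The remaining families of the brightest 8 were hil, cox, ndub, vha, cct and cpr. In all, 12 families had a median above the 90th percentile, among them also flp, lec, hsp and his.

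**Figure D1:**
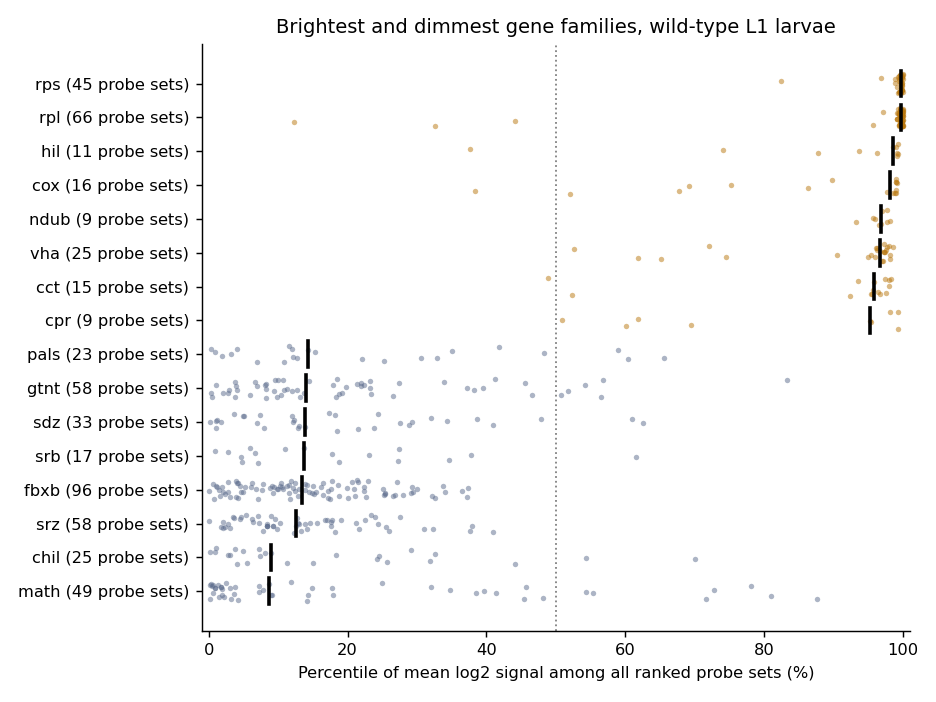
Percentile of mean log2 signal (x axis, percent of all 22548 ranked probe sets) for the 8 brightest and 8 dimmest gene families; each point is a probe set, spread vertically at random for legibility, and the black bar is the family median. The bright families hold a few dim probe sets, such as those of rpl-8 and cox-19, while the fbxb and srz points all lie below the 41st percentile.

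Linker histones, which bind the DNA between nucleosomes, formed the third family (hil, median percentile 98.61, 8 of 11 probe sets in the brightest 10%). With only the brightest probe set of each gene its median was 94.95, below that of cpr at 95.35. With unmarked probe sets only it was 93.62. The third place thus depended on genes with several probe sets. Its brightest genes were hil-3 (13.82, 13.66 and 13.87), hil-7 (13.71, 13.70 and 13.70, marked) and hil-2 (13.43, 13.36 and 13.45). The gene hil-1 gave 11.46, 12.42 and 12.27, with wild type 1 about 1 log2 unit below the other two. The dimmest members were hil-8 (6.39, 6.52 and 6.46) and hil-4 (9.20, 9.27 and 9.42). The linker histone gene his-24, which carries a core histone's symbol stem, was brighter than all of them at 14.41, 14.30 and 14.41 (marked). Among 41 probe sets of histones as a whole 24 (58.5%) lay in the brightest 10%. His-72, a histone H3 variant gene, was the brightest outside the linker histones with 13.83, 13.96 and 13.91 (marked).

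Genes of mitochondrial energy production were next. The respiratory chain passes electrons from food to oxygen and drives ATP synthase. Of 49 probe sets of the respiratory chain and ATP synthase, 39 (79.6%) lay in the brightest 10% and 0 in the dimmest, with a median percentile of 97.25. The ATP synthase subunit genes atp-1 and atp-2 gave 14.43, 14.32 and 14.31 and 14.27, 14.29 and 14.32, both marked. Cytochrome c (cyc-2.1) gave 14.28, 14.26 and 14.21. In the family cox, of cytochrome c oxidase subunits and assembly factors, the subunit genes cox-6B (13.61, 13.70 and 13.66) and cox-5B (13.46, 13.58 and 13.47) led. The assembly factor genes cox-19 (6.64, 6.44 and 6.44) and cox-10 (7.51, 7.68 and 7.68) were the dimmest. All 9 probe sets of the complex I family ndub lay in the brightest 10%, from ndub-3 (11.12, 11.42 and 11.40) to ndub-10 (12.71, 12.85 and 12.66).

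Genes encoded by the mitochondrial genome itself were looked up under their RefSeq symbols after the values were seen. Of 8 probe sets 7 lay in the brightest 10%, from ATP6 at 11.37, 11.38 and 11.51 to ND4 at 13.36, 13.49 and 13.45. The probe set of COX1 gave 12.77 on each array, equal to the last deposited digit. ND5 stood apart with a mean of 7.07. The citric acid cycle, which feeds the chain, had a median percentile of 96.13 over 31 probe sets, led by the citrate synthase gene cts-1 (13.77, 13.58 and 13.58, marked). Glycolysis had 93.33 over 21, led by the glyceraldehyde-3-phosphate dehydrogenase gene gpd-2 (14.04, 14.13 and 14.16, marked). Its dimmest member was the phosphofructokinase gene pfk-1.2 (5.61, 5.57 and 5.70).

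The vacuolar proton pump (vha), which acidifies organelles, had a median percentile of 96.65 with 20 of 25 probe sets in the brightest 10%. It was led by vha-12 (13.05, 13.04 and 13.10) and vha-13 (12.74, 12.75 and 12.82), both marked. The chaperonin subunits (cct), which fold actin and tubulin, had 95.80 with 13 of 15. Their leading gene was cct-5 (12.83, 12.94 and 12.89, marked). The dimmest chaperonin probe set, of cct-3, gave 6.73, 7.51 and 7.85, a spread of over 1 log2 unit. Among chaperones as a whole calreticulin, a calcium-binding chaperone of the endoplasmic reticulum (crt-1, 14.37, 14.44 and 14.41, marked), and hsp-90 (13.79, 14.08 and 14.16) were brightest. The proteasome, which degrades proteins, had a lower median of 87.48, with 13 of 39 probe sets (33.3%) in the brightest 10%.

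Proteases of the gut lumen and lysosome closed the group of the 8 brightest families. The cathepsin B-like family cpr had a median percentile of 95.30 with 5 of 9 probe sets in the brightest 10%. Its leading genes were cpr-9 (13.86, 13.67 and 13.71) and cpr-1 (13.98, 13.70 and 13.56). Its dimmest were cpr-8 (7.41, 7.41 and 7.80) and cpr-4 (8.70, 8.16 and 7.96), at percentiles of 50.9 and 60.1. The family thus spanned over 6 log2 units within 8 genes. It also had the largest median SD of all 233 families, 0.330. The aspartyl protease gene asp-1 gave 14.39, 14.36 and 14.38, a spread at the level of the ribosomal proteins. Fatty acid desaturases and elongases had a median percentile of 96.88, with 12 of 18 probe sets in the brightest 10%. Lipid-binding proteins had 80.94, with 6 of 18 in the brightest and 3 (16.7%) in the dimmest 10%. The fatty acid desaturase genes fat-2 (13.39, 13.53 and 13.50) and fat-3 (13.37, 13.33 and 13.31) and the fatty acid- and retinol-binding protein gene far-1 (14.20, 14.16 and 14.26, marked) led, whereas the desaturase gene fat-7 gave 5.57, 5.63 and 5.68 and the lipid-binding protein gene lbp-8 4.08, 4.09 and 4.12 (marked).

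Translation factors other than ribosomal proteins had a median percentile of 88.19, with 23 of 52 probe sets (44.2%) in the brightest 10%, led after eef-1A.1 by eef-2 (14.17, 14.23 and 14.26, marked). Aminoacyl-tRNA synthetases, which load amino acids onto tRNAs, had 77.98. The ribosomal proteins of the mitochondrion had 83.38, with 6 of 65 probe sets (9.23%) in the brightest 10%, a share close to the 10% of all probe sets. The brightest of the mitochondrial set, mrps-5, gave 12.12, 12.37 and 12.15. Only 5 of the 118 probe sets with a cytoplasmic ribosomal symbol had a lower mean than it.

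The dimmest end of the ranking was less uniform. The 15 genes with the dimmest probe sets had means from 3.85 to 3.95 and SDs up to 0.114, so their order is not fixed by these arrays. The dimmest, M60.4, gave 3.82, 3.91 and 3.82, followed by the nuclear hormone receptor gene nhr-174 (3.86, 3.90 and 3.88). Others with a family name were the homeobox gene ceh-7 (3.92, 3.90 and 3.88), the chemoreceptor gene srz-52 (3.90, 4.03 and 3.88), the F-box gene fbxb-22 (3.96, 3.96 and 3.94), the synaptobrevin-related gene snb-6 (4.01, 4.00 and 3.81) and the calpain-family gene clp-8 (3.90, 3.92 and 4.01). F13C5.3, C46C2.5, T15B7.8, C02F5.2, F19B10.3, C13A2.9, T13F2.4 and K10G4.4 completed the 15. Of the 15 genes 5 have another probe set, and that of M60.4 gave 12.75, 12.89 and 12.75, at a percentile of 98.2. Detection was not assessed in the deposited values, so a low signal does not show that a gene was silent.

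At the family level the dim end was clear. The family math, of proteins with a MATH domain, had the lowest median percentile of 8.61, with 27 of 49 probe sets (55.1%) in the dimmest 10%. It also reached high values, with math-3 at 10.51, 10.48 and 10.65 (marked) and math-33 at 9.83, 9.88 and 9.88 (marked), beside math-5 at 3.99 on all 3 arrays. The chitinase-like family chil had 9.01, with 13 of 25 in the dimmest 10% and its brightest member, chil-10, at 9.03, 8.98 and 8.96. The F-box family fbxb, whose proteins select substrates for ubiquitin ligases, had 13.43. The brightest of its 96 probe sets was that of fbxb-67 at 6.73, 6.19 and 6.39. The family pals, known from the response to microsporidia and viruses, had 14.32, with pals-25 (8.62, 8.70 and 8.70) and pals-22 (8.31, 8.22 and 8.35) brightest. The family gtnt had 14.07. The family sdz, named for zygotic genes that depend on the transcription factor SKN-1 in the embryo, had 13.82 and was led by sdz-24 (9.44, 7.85 and 8.06), with wild type 1 far above the other arrays.

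Chemoreceptors are the largest gene group of the worm, and most are made in a few sensory neurons each. The 1293 probe sets of this list had a median percentile of 20.03, 295 (22.8%) lay in the dimmest 10% and 1 in the brightest. That exception, srr-4, gave 11.63, 11.59 and 11.31. After it came odr-10, the receptor for diacetyl, at 10.19, 10.32 and 10.40, then srbc-20 (9.41, 9.77 and 9.96) and srv-1 (8.92, 9.15 and 9.28). All 20 chemoreceptor families with at least 8 genes had median percentiles between 12.6 (srz) and 40.6 (srr), and 17 of them lay below 25. Of 30 families with a median below 25, 17 were chemoreceptor families. Yet chemoreceptors made up 6.19% of the dimmest 1% of probe sets and 5.73% of all, so their share at the very end of the ranking was close to their share of the array. In whole larvae, fewer cells of a type and less RNA per cell cannot be told apart, which holds for this and the following tissue lists.

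Other large families ranged from dim to the middle of the ranking. The 408 probe sets of F-box, MATH and BTB genes had a median percentile of 20.49, and bath-38 (11.50, 11.54 and 11.28) and bath-42 (11.12, 11.29 and 11.36), both marked, were the only members in the brightest 10%. C-type lectins, many of them secreted immune proteins, had 26.89 over 236 probe sets, with 39 (16.5%) in the dimmest and 9 (3.81%) in the brightest 10%. Among them clec-63 stood at 13.76, 13.81 and 13.70, in the brightest 1%. The 293 probe sets of nuclear hormone receptors had a median of 49.32, with 33 (11.3%) in the dimmest and 6 (2.05%) in the brightest 10%. Their share in the dimmest 10% was thus close to that of all probe sets. The receptor gene nhr-88 gave 12.81, 12.84 and 12.80, and nhr-49, a regulator of fat metabolism, 12.24, 12.14 and 12.30. Cytochrome P450 enzymes, which oxidise foreign compounds and lipids, had 42.58, led by cyp-13A5 (11.44, 11.41 and 11.44).

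Lists of tissue markers were ordered intestine, body wall muscle, neurons, germ line, pharynx, oocyte, sperm, dauer cuticle, vitellogenins, adult cuticle and early embryo by median percentile. The intestine had 94.67 with 16 of 29 probe sets (55.2%) in the brightest 10%. Besides the proteases, its ferritin gene ftn-1 gave 12.94, 13.28 and 13.38 (marked). The intestinal transcription factor gene elt-2 gave 9.09, 8.89 and 8.94 at one probe set and 6.158, 5.984 and 5.999 at another. Body wall muscle had 92.15 with 34 of 63 in the brightest 10%, led after mlc-2 by the tropomyosin gene lev-11 (13.69, 13.63 and 13.62, marked) and the troponin C gene pat-10 (13.60, 13.53 and 13.54, marked). Marker lists differ in the kind of gene they hold, so their order is one of signal and not of tissue size.

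Neuronal genes had a median percentile of 82.31, with 15 of 46 probe sets (32.6%) in the brightest 10%. The neuropeptide-processing enzymes were the brightest, with egl-3, a proprotein convertase, at 13.997, 13.857 and 13.915 and egl-21, a carboxypeptidase, at 13.91, 13.75 and 13.76 (marked). The synaptic vesicle gene snb-1, synaptobrevin, gave 12.32, 12.33 and 12.22 (marked). Their substrates, the neuropeptide precursor genes flp and nlp, were bright as well. Over 94 probe sets the median percentile was 92.51, with 54 (57.4%) in the brightest 10%. The FMRFamide-related genes flp-9 (13.69, 13.51 and 13.65, marked) and flp-1 (12.712, 12.933 and 13.002) led, and 25 of 32 flp probe sets lay in the brightest 10%. At the other end flp-23 gave 4.63, 4.67 and 4.69. Insulin-like peptides, which signal food status, were lower at 43.23 over 25 probe sets, led by ins-17 (11.49, 11.24 and 11.30).

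The pharynx list was wide, with a median percentile of 49.88, quartiles of 35.2 and 93.5, 10 of 34 probe sets (29.4%) in the brightest 10% and 4 (11.8%) in the dimmest. Its brightest genes were phat-8 (12.96, 12.93 and 12.55), phat-7 (12.83, 12.85 and 12.19) and the pharyngeal myosin genes myo-1 (12.92, 12.35 and 12.04) and myo-2 (12.56, 12.30 and 11.96), both marked. Its dimmest were abu-10 (4.49, 4.33 and 4.23) and abu-4 (4.46, 4.45 and 4.46). The germ line list, of 40 probe sets, had a median of 57.01. Its Piwi gene prg-1 (11.80, 11.68 and 11.47, marked) and the RNA helicase gene cgh-1 (11.36, 11.52 and 11.52) were in the brightest 10%, and the germ granule genes meg-1 (4.44, 4.42 and 4.46) and meg-2 (4.63, 4.59 and 4.52) in the dimmest.

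**Figure D2:**
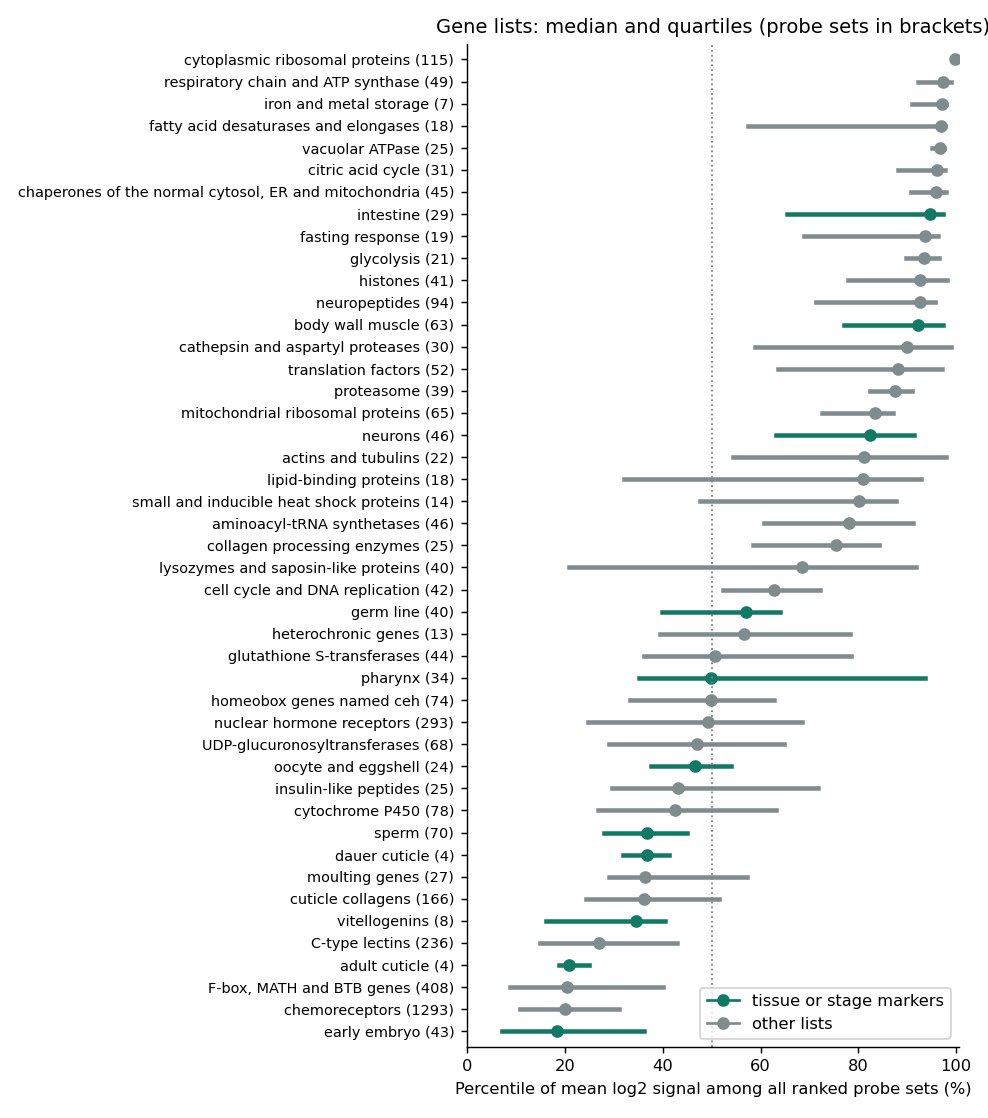
Median (point) and quartiles (bar) of the percentile of mean log2 signal (x axis, percent) for 45 gene lists, with the number of probe sets in brackets; green marks lists of tissues or stages. Cytoplasmic ribosomal proteins, a list that also holds the replication protein A genes rpa-1 and rpa-2, sit at 99.67, intestine at 94.67, and early embryo at 18.45.

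Lists of markers of the adult, of gametes and of the embryo held 0 probe sets in the brightest 10%. The cell cycle list, of 42 probe sets, held 0 as well, so this was not particular to those stages. The lists of the dauer cuticle and of larval timing also held 0. With 4 and 13 probe sets they are too small to set against the 10% of all. The vitellogenins, yolk proteins made by the adult intestine, reached at most 6.96, 7.06 and 7.08, at a marked probe set of vit-6, and vit-2 gave 4.16, 4.12 and 4.22. Of their 8 probe sets 0 lay in the brightest 10% and 1 (12.5%) in the dimmest. The vitellogenin list and the adult cuticle list, of 4 probe sets, are too small to set against the 10% of all. The adult cuticle collagen gene col-19 gave 5.15, 5.08 and 5.22. The sperm list had a median percentile of 36.83 with 5 of 70 probe sets (7.14%) in the dimmest 10%, and the oocyte and eggshell list 46.60 with 2 of 24 (8.33%). Both shares lie below the 10% of all probe sets, so these lists were not concentrated in the dimmest 10%. Their quartiles were 27.9 and 44.9 for sperm and 37.5 and 53.9 for oocyte and eggshell. Most sperm probe sets thus lay below the middle of the ranking. Marked were 42 of the 70 sperm and 14 of the 24 oocyte and eggshell probe sets. The early embryo list had the lowest median of all 45 lists, 18.45, with 13 of 43 probe sets (30.2%) in the dimmest 10%. Its members pal-1 (8.58, 8.82 and 9.03) and end-3 (7.43, 7.44 and 7.56), both transcription factor genes, were among the brighter ones.

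Genes that time larval development were of middling signal. The heterochronic gene lin-28, an RNA-binding protein gene of early larvae, gave 10.36, 10.29 and 10.46 at its brightest probe set and 9.57 to 9.78 at the other two. The transcription factor gene hbl-1 gave 10.15, 9.93 and 10.36 at one probe set and 7.95, 7.63 and 7.92 at another (both marked), while lin-14, which specifies L1 fates, gave 5.64, 5.58 and 5.61 at its only named probe set (marked). Cuticle collagens had a median percentile of 36.13 over 166 probe sets, 14 of them (8.43%) in the brightest 10%. The brightest were col-125 (13.69, 13.95 and 14.02), col-93 (13.68, 13.77 and 13.92), col-107 (11.79, 12.46 and 12.44) and dpy-13 (11.79, 12.31 and 12.40), all marked, so related collagens may share this signal. Moulting genes had 36.41, with the endocytic receptor gene lrp-1 (11.44, 10.96 and 11.19, marked) as the brightest and acn-1 (4.49, 4.43 and 4.49) as the dimmest.

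Genes of cell division lay above the middle but never at the top. Of 42 probe sets for the cell cycle and DNA replication 0 lay in the brightest and 0 in the dimmest 10%, with a median percentile of 62.81. The brightest was cki-1, an inhibitor of cyclin-dependent kinases that holds cells out of division, at 10.62, 10.46 and 10.45. The ribonucleotide reductase gene rnr-1 gave 9.85, 10.21 and 10.10 and the sliding clamp gene pcn-1 9.51, 9.84 and 9.79, both marked. The kinase gene cdk-4 gave 5.43, 5.44 and 5.50.

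Genes known from fasted worms ranged from bright to dim. The list had a median percentile of 93.53 over 19 probe sets, and 74.97 with 1 probe set per gene, since icl-1 and hlh-30 have several. The glyoxylate cycle gene icl-1, which allows sugar to be made from fat, gave 14.18, 13.77 and 14.02 (marked), and pck-1, the gluconeogenic enzyme gene, 13.02, 12.97 and 13.39 (marked). The starvation-responsive transcription factor gene hlh-30 gave 12.01, 11.75 and 11.98. At the dim end the lipase gene lipl-4 gave 4.789, 4.884 and 4.9997 and cpt-3 gave 5.97, 5.98 and 6.09. No unfed wild-type sample was analysed here, so these levels cannot be set against fasting.

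By the RefSeq gene type, pseudogenes were far dimmer than protein-coding genes. The 933 pseudogene probe sets had a median percentile of 19.9, with 268 (28.7%) in the dimmest 10% and 8 (0.857%) in the brightest. The 19729 protein-coding probe sets had 53.7, with 1646 (8.34%) and 2127 (10.8%). The chemoreceptor list, at 20.03, and the list of F-box, MATH and BTB genes, at 20.49, had medians close to that of the pseudogenes. Both lists were formed by symbol and not by gene type, so some pseudogenes may be in both groups compared.

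How far a rank depends on the probe set can be read from the 2981 genes with more than 1. The gap between the highest and the lowest mean of a gene had a median of 0.954 log2 units, with quartiles of 0.447 and 1.82, and exceeded 1 in 47.9% of genes and 3 in 12.1%. The median gap was 9.65 times the median SD between arrays. Over the 2496 genes with exactly 2 probe sets, the means correlated with Pearson r = 0.750, where both points come from the same arrays. Over 1205 genes with more than 1 unmarked probe set the median gap was 0.974. The largest gaps among genes of above-median signal were those of rpl-8 (14.78 against 4.93), the tropomyosin gene lev-11 (13.65 to 4.46 over 7 probe sets), Y53F4B.45 (13.42 against 4.46), M60.4 (12.80 against 3.85) and spig-11 (13.07 against 4.65). Signal thus differed far more between probe sets of a gene than between arrays at the same probe set. The gap is a range and the SD was taken over all ranked probe sets, so their ratio is only rough.

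The replicates were close. The median SD over the 3 arrays was 0.0988 log2 units, with quartiles of 0.0563 and 0.166, and the 95th percentile was 0.335. The spread depended on the signal. Its median was 0.0587 in the dimmest 10% of probe sets, reached 0.134 just above the middle of the ranking and was 0.101 in the brightest 10%. In the brightest 1% it was 0.0458. The part of the authors' processing in this pattern was not tested. Of all probe sets 0.497% had equal values on the 3 arrays, among them rps-17, rps-12 and COX1, and 7.43% on at least 2 arrays.

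**Figure D3:**
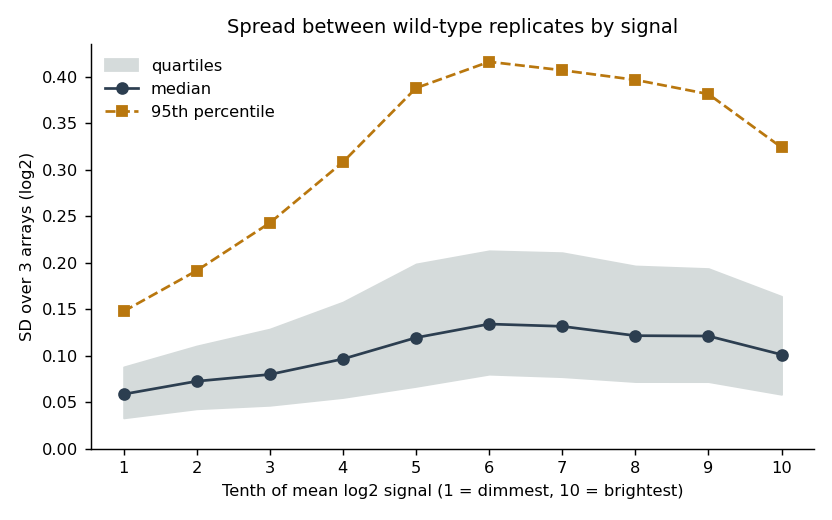
SD of the log2 signal over the 3 wild-type arrays (y axis) by groups of 10% of the ranking (x axis, 1 is the dimmest and 10 the brightest); the line with circles is the median, the band the quartiles and the dashed line the 95th percentile of each group of about 2255 probe sets. The median climbs from 0.0587 to 0.134 in the middle and returns to 0.101 among the brightest.

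Wild type 1 stood apart from the other arrays. Across all 22548 probe sets, which share probes and are not independent, Pearson r was 0.997 between wild type 2 and 3, 0.993 between 1 and 2 and 0.992 between 1 and 3. The number of probe sets that differed by more than 1 log2 unit was 18 between wild type 2 and 3, 183 between 1 and 2 and 245 between 1 and 3. Wild type 1 was the array farthest from the mean of the 3 in 46.5% of all probe sets. Among the 354 probe sets with an SD of at least 0.5 it was the farthest in 298 (84.2%), and among the 37 with an SD of at least 1 in 32. Without it the median SD was 0.0642, against 0.0894 without wild type 2 and 0.0891 without wild type 3.

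The genes with the largest SD at or above the median signal were led by ribosomal RNA. The probe set of rrn-3.1, a 26S ribosomal RNA gene, gave 9.22, 11.95 and 12.47 (SD 1.74, marked), and that of its pseudogene rrn-3.56 gave 7.93, 10.70 and 10.82 (SD 1.64, marked). All 5 probe sets of rrn-3.1 and that of rrn-3.56 were lowest on wild type 1, by 2.40 to 2.77 log2 units below the next array. These 6 probe sets report on the same kind of RNA and are not 6 independent genes. Control probe sets for spike RNAs differed in the same direction. The dap spike gave 6.507, 7.196 and 7.232 and the thr spike 6.74, 7.09 and 7.05. The phe spike (6.69, 6.75 and 6.76) and the lys spike (4.57, 4.63 and 4.66) were also lowest on wild type 1, by under 0.1. All these control signals lay below the median of 7.45 over the ranked probe sets. Whether such RNAs were added to the samples was not established here. The part of these controls in the result was not tested.

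Stress genes came next. The small heat shock protein genes hsp-16.41 (7.91, 9.95 and 11.18, SD 1.65) and hsp-16.2 (8.47, 10.14 and 11.07, SD 1.32) and the inducible hsp-70 (6.21, 7.65 and 9.26, SD 1.53, marked) differed between every pair of arrays, lowest on wild type 1 and highest on wild type 3. These genes are known to respond quickly to heat and protein damage. Of the 14 probe sets of small and inducible heat shock proteins 12 were lowest on wild type 1 and 0 highest. Some varied less, as hsp-25 (11.06, 11.32 and 11.28, marked) and hsp-12.1 (6.90, 7.14 and 7.16) differed by less than 0.3. The other genes that were lowest on wild type 1 were F26A1.8 (9.76, 12.24 and 12.51), ule-3 (9.49, 11.60 and 12.10, marked), srlf-34 (8.62, 10.38 and 11.33), the calcium-binding protein gene cex-1 (9.84, 12.01 and 11.95) and F41C3.2 (7.26, 8.87 and 9.68).

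Only fmo-2 and cyp-35B3 among these 12 genes were highest on wild type 1. The flavin-containing monooxygenase gene fmo-2 gave 10.85, 8.35 and 8.93 (SD 1.31). The cytochrome P450 gene cyp-35B3 gave 10.70, 10.19 and 8.32 (SD 1.26), so that here wild type 3 was the array apart. Its relatives, looked at after this was seen, followed the same order: cyp-35B2 gave 9.59, 8.88 and 7.48, cyp-35A1 gave 8.72, 7.87 and 6.56 and cyp-35A2 gave 10.50, 10.28 and 9.68. Of 11 cyp-35 probe sets only cyp-35D1, at 5.32, 5.30 and 5.32, kept within 0.1.

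**Figure D4:**
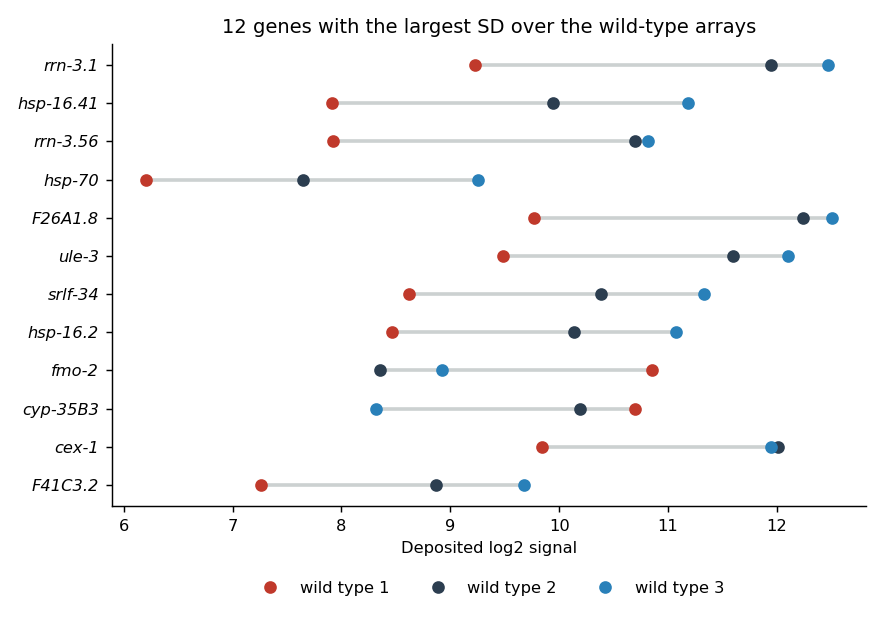
Deposited log2 signal (x axis) on the 3 wild-type arrays for the 12 genes with the largest SD among probe sets at or above the median signal; each point is an array and the grey line joins the lowest and the highest. In 10 of the 12 genes wild type 1 is the lowest point, and in fmo-2 and cyp-35B3 it is the highest.

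Whole groups of genes shifted together on wild type 1 by smaller amounts. Over all probe sets wild type 1 was the lowest array in 41.3% and the highest in 38.4%. Of the 42 cell cycle and DNA replication probe sets it was the lowest in 39 (92.9%), with a median deviation from the mean of the 3 arrays of -0.15. Of the 41 histone probe sets it was the lowest in 34 (82.9%, median deviation -0.12), and of the 39 proteasome probe sets in 28 (71.8%, -0.07). It was the lowest in 37 of 45 probe sets of the ribosomal family rps (82.2%) and in 51 of 66 of rpl (77.3%), although both median deviations were only -0.03. For some tissue lists the direction ran the other way. Wild type 1 was the highest array in 36 of 46 neuronal (78.3%, median deviation 0.14) and 25 of 34 pharyngeal probe sets (73.5%, 0.11). The same held for 42 of 63 body wall muscle (66.7%, 0.09) and 18 of 29 intestinal probe sets (62.1%, 0.07). Tissue and stage lists were not uniform, as it was the lowest array in 27 of 40 germ line (67.5%, -0.09) and 6 of 8 vitellogenin probe sets. The other arrays shifted too. Wild type 2 was the lowest array in 36 of 46 neuronal probe sets (78.3%, median deviation -0.14), and wild type 3 in 22 of 34 pharyngeal ones (64.7%, -0.13), so these lists separated more than wild type 1. Wild type 2 was also the highest array in 31 of 39 proteasome probe sets (79.5%, 0.07). With 1 group of 3 arrays these shifts were not tested.

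**Figure D5:**
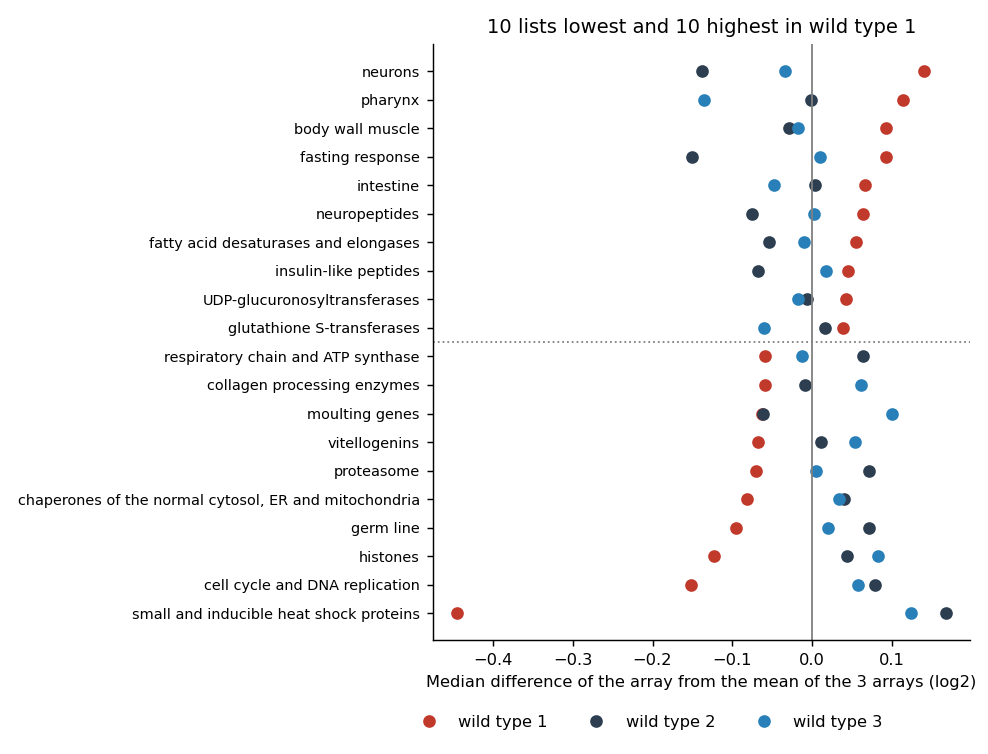
Median difference of each wild-type array from the mean of the 3 arrays (x axis, log2 units) over the probe sets of a list, for the 10 lists lowest and the 10 highest on wild type 1, separated by the dotted line. Small and inducible heat shock proteins lie at -0.45 on wild type 1 and neurons at 0.14.

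Some families stood out by their spread. Against a median of 0.103 over the 233 family medians, the families cpr and irg had 0.330 and 0.329. All 8 probe sets of irg, genes known from the response to infection, were highest on wild type 1, with irg-5 at 9.38, 8.09 and 8.25 and irg-4 at 11.35, 10.35 and 10.88, while irg-1 differed by about 0.1 (6.79, 6.69 and 6.69). The fatty acid elongase family elo had 0.25, with elo-5 at 13.11, 11.82 and 11.73 and elo-2 at 12.41, 11.51 and 11.25, while elo-3 was opposed at 7.82, 8.78 and 9.01. In the transthyretin-related family ttr wild type 1 was the lowest array in 29 of 41 probe sets. The gene ttr-2 gave 9.07, 10.35 and 10.55 and ttr-32 gave 8.08, 9.40 and 9.79. At the other end stood the ribosomal families, with median SDs of 0.0361 (rps) and 0.0393 (rpl). These families were chosen for description after their spread was seen.

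The control probe sets at both ends of a transcript give a measure of RNA quality. The signal at the 3-prime end of actin exceeded that at its 5-prime end by 0.47, 0.55 and 0.68 on wild type 1, 2 and 3, and that of catalase by 1.01, 0.72 and 1.12. For ubiquitin the gap was 3.34, 3.28 and 3.33, and for glyceraldehyde-3-phosphate dehydrogenase it was within 0.04 of 0. The gap of wild type 1 was the smallest for actin and the largest for ubiquitin. It lay between the others for catalase and glyceraldehyde-3-phosphate dehydrogenase.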

How the data were processed

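The authors deposited 1 log2 signal per probe set and array. Per the submitters' processing notes MAS5, RMA and Partek were used, with no versions or roles. Neither the log base nor the scaling is stated there, and log2 was read from the range of the deposited values. Raw scans, detection and probe sequences were not used here. The platform annotation and the RefSeq WBcel235 gene table gave names (20701 probe sets matched), gene types and gene order only. From these values the mean, SD, rank and percentile over the 3 wild-type arrays were computed in Python 3.11.15 with pandas 2.3.3 and numpy 2.4.6. Only the percentile ranking and the SD were tested on simulated data beforehand. With 1 group there is no test and no p-value, and the number of arrays limits the precision. Genes were named by rule: the 30 brightest and 15 dimmest, up to 4 brightest and 2 dimmest of each described family or list, the 12 with the largest SD and the 5 with the largest probe set gap. Other genes named, such as hil-1, hsp-12.1, elo-3 and the irg, ttr and cyp-35 genes, were picked after their values were seen. The members, the 46 lists (45 with measured members) and the rules were chosen with earlier results of these data known.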

Additional observations from a re-analysis of the deposited data

How the results depend on the processing

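Quantile normalization, the median of the 3 arrays and leaving out each array kept 28 to 30 of the 30 brightest genes, 12 to 15 of the 15 dimmest, at least 7 of the 8 brightest and of the 8 dimmest families and at least 9 of the 10 brightest and dimmest lists. With unmarked probe sets only, 12 of the 30 brightest genes were shared, since 16 of them have an unmarked probe set, although 26 of the 30 brightest unmarked genes were ribosomal proteins. Of the 8 brightest families 2 were shared, since only 3 still had 8 genes; these were rps and rpl, while cox dropped to a median percentile of 82.5. The 10 brightest lists kept 8 with 1 probe set per gene and 7 with unmarked probe sets. The median SD was 0.121 over probe sets at or above the median signal, and 0.0642 to 0.0894 without 1 array. The gap between probe sets of a gene, an alternative chosen after the data were seen, stayed within 0.949 to 0.974. No paired analysis was possible because there is 1 group and no test. Protein length, chromosome and promoter motifs, with their alternatives, were not run, as no sequence of these genes was used here.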

Other observations

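Neighbouring protein-coding genes, in the order of the RefSeq table, resembled each other in signal. Over 13607 pairs of neighbours, each gene given the mean of its probe sets, Spearman's rho was 0.296, as a description across genes that share arrays. For the 998 pairs of 1 symbol family it was 0.522 with a median gap of 0.864 log2 units, and for the 12609 other pairs 0.251 with a median gap of 1.75.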
